A study of Mus musculus with 12 samples.

Results

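Gfi1 and Gfi1b are paralogous zinc finger repressors, and the open chromatin around both genes was examined in blood progenitors of WT mice and of mice that lack the upstream regulatory element (URE) of Spi1. The loci were taken as 2 fixed windows of GRCm38, chr5:107680000-107790000 for Gfi1 (110 kb) and chr2:28590000-28660000 for Gfi1b (70 kb), and the members are the regions of the deposited accessibility table that lie within them. They number 38 of 121336 regions in all, 22 in the Gfi1 window and 16 in the Gfi1b window, and none crosses a window edge. Both genes lie on the minus strand, and each region is named by the distance of its midpoint from the RefSeq start site of the gene (position 107725805 for Gfi1 and 28621982 for Gfi1b), with negative distances upstream.

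The study sorted bone marrow cells of young adult littermate mice on a C57BL/6 background and profiled them by OmniATAC-seq, in which a transposase inserts sequencing adapters into open chromatin. LSKs are Lin-Sca-1+c-Kit+ cells, a gate that holds stem cells and multipotent progenitors, and GMPs are Lin-Sca-1-c-Kit+CD16/32+ granulocyte-monocyte progenitors. With WT and UREd/d mice this gives 4 groups of 3 libraries each, WT-LSK, UREd/d-LSK, WT-GMP and UREd/d-GMP, from 3 mice per genotype and cell type. The deletion is carried in the germline, so that every cell of a UREd/d mouse lacks the element, and the labels give no treatment.

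GFI1 and GFI1B share a SNAG domain at the amino terminus, which recruits the histone demethylase LSD1 and its CoREST partners, and zinc fingers that read the same AATC core. GFI1 is known for its role in stem cells, lymphocytes and above all in granulocytes, where it opposes the monocytic programme of PU.1, the protein encoded by Spi1. GFI1B is known for its role in the erythroid and megakaryocytic lineages, and the repressors bind and repress each other's genes. Accessibility is given in CPM, a region's count relative to its library's TMM-adjusted total. A region was called at an absolute log2 fold change above 1 and a p under 0.05 in edgeR's quasi-likelihood test after adjustment over all regions.

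The regions that carry most of what follows are printed from the plus strand of GRCm38 (RefSeq sequence) as 300 bp windows centred on the region, and the promoter that differed between genotypes as the 250 bases before the RefSeq start of Gfi1b, on its own minus strand. Capitals mark exact matches, on either strand, to GAGGAAGT for PU.1, CCGGAAGT for other ETS factors and TTGCNNAA for C/EBP proteins. The RUNX motif searched was AACCACA. For the GATA factors, which drive erythroid and megakaryocytic genes, the letters AGATAA were searched. The E-box of basic helix-loop-helix factors was taken as CAGCTG, which is its own reverse complement and so counts once on both strands. The motif of GFI1 and GFI1B themselves, with the core named above, was written as AAATCNC. The PU.1 and other ETS motifs share the ending GGAAGT, and none of the motifs contains another.
Gfi1 -33.5 kb, intron of Evi5, chr5:107759186-107759485: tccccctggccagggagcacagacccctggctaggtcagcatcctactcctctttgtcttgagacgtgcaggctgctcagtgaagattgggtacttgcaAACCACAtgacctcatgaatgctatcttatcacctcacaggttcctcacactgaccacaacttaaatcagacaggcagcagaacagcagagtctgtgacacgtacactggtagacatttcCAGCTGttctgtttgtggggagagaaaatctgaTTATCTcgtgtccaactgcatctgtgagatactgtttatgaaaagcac
Gfi1 +7.6 kb, intron of Gfi1, chr5:107718022-107718321: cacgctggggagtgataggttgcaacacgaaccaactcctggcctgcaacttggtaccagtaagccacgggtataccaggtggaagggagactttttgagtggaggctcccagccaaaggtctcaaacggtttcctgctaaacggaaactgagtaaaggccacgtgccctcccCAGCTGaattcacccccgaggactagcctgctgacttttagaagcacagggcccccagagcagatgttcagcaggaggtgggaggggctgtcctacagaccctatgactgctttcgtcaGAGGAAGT
Gfi1 +17.4 kb, intergenic, chr5:107708239-107708538: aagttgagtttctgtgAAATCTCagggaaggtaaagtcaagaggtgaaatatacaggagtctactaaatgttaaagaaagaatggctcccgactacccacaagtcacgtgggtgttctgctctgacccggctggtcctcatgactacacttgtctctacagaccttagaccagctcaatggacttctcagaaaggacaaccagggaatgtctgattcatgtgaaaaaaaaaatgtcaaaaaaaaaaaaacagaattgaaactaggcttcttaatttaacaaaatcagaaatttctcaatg
Gfi1 +19.9 kb, intergenic, chr5:107705798-107706097: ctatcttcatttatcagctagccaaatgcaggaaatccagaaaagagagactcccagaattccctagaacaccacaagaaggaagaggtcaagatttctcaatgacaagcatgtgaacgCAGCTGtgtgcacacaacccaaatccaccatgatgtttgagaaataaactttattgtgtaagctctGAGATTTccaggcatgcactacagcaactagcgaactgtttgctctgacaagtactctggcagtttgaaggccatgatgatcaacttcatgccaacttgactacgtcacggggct
Gfi1b +3.1 kb, intron of Gfi1b, chr2:28618741-28619040: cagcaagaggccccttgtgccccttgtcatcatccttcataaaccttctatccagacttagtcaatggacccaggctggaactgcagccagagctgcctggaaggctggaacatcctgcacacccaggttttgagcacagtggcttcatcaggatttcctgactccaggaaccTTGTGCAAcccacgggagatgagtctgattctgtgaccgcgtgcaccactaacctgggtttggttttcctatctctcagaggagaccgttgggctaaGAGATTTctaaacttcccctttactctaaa
Gfi1b +23.8 kb, intergenic, chr2:28598017-28598316: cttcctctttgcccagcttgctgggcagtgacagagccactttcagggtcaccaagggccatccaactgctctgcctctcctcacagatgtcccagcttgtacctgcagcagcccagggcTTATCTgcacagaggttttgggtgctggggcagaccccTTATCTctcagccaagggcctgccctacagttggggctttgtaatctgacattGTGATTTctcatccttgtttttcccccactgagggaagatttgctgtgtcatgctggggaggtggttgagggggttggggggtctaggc
Gfi1b +30.4 kb, intergenic, chr2:28591481-28591780: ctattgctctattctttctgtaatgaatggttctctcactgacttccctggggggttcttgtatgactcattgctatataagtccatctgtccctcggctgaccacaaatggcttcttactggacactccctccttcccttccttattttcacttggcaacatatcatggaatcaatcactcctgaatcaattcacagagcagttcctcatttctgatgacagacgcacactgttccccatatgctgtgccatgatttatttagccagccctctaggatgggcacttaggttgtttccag
Gfi1b, bases before the start site, chr2:28621983-28622232: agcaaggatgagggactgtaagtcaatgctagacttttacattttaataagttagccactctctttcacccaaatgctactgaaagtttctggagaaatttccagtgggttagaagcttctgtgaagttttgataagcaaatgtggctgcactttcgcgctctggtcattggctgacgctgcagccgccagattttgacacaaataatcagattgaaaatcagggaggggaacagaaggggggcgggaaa

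The -33.5 kb window of Gfi1 held a RUNX, an E-box and a GATA match, and the Gfi1b +23.8 kb window held 2 GATA matches and a GFI1 match. The +7.6 kb window in an intron of Gfi1 held an E-box and, at its edge, the PU.1 octamer, whereas the +17.4 kb and +19.9 kb windows each held a GFI1 match, the latter beside an E-box. The Gfi1b +3.1 kb intron held a C/EBP and a GFI1 match, and neither the Gfi1b +30.4 kb window nor the bases before the Gfi1b start held a match to these motifs. Over all 38 windows the PU.1 octamer was found in 2 of 22 at Gfi1 and 0 of 16 at Gfi1b, against 8.7% of the windows of all regions. GATA matches lay in 4 of 22 and 4 of 16 windows (12.9% of all windows), C/EBP in 4 and 3 (16.4%), RUNX in 2 and 3 (14.4%), the E-box in 6 and 1 (20.5%) and GFI1 in 4 and 4 (10.5%), with the other ETS octamer in none (1.22%). A match describes letters only, since no factor was mapped here.

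The libraries held 23072701 to 62204826 counts over all regions, so that 3 counts were worth 0.052 to 0.122 CPM. The 3 libraries of a group correlated at 0.94 to 0.98 (Pearson, log2 CPM), above the highest value between groups of 0.827. The deletion itself was visible in the counts. The open region 13.7 kb upstream of the Spi1 promoter, where the URE is known to lie, had 974 to 2110 counts in the 6 WT libraries and 0 to 6 counts in the 6 UREd/d libraries. Regions near GMP markers (Elane, Mpo, Prtn3, Ctsg and Ms4a3 of 6 genes, Fcgr3 having no region) summed to 171 to 177 CPM in WT-LSKs, 131 to 204 in UREd/d-LSKs, 672 to 900 in WT-GMPs and 1079 to 1138 in UREd/d-GMPs. In sorted bulk cells, fewer open cells of one kind and less accessibility per cell cannot be told apart.

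The WT-GMP libraries differed among themselves at both loci. WT-GMP replicate 3 had a higher signal than replicates 1 and 2 at several regions that were lower in GMPs than in LSKs, with 21.1 CPM against 9.62 and 9.34 at Gfi1 -33.5 kb and 27.9 CPM against 13.8 and 14.2 at Gfi1b +23.8 kb. At Gfi1 -42.6 kb it had 1.98 CPM against 0.502 and 0.504. At the Gfi1 promoter region it was the lowest of the 3. The same library had the highest sum over megakaryocyte markers among WT-GMPs, 161 CPM against 115 and 110 (6 of 6 genes with a region), and the lowest over GMP markers. WT-GMP replicate 1 had the highest sum over GMP markers, 900 CPM against 737 and 672. It was also the highest of its group at several regions with more signal in GMPs. At the Gfi1 promoter region it had 101 CPM against 73.0 and 63.1, and at Gfi1 +19.9 kb 9.08 against 5.25 and 3.73. The part of these markers in the results was not tested. The regions described below whose call changed without WT-GMP replicate 3 are given with and without it.

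**Figure D1:**
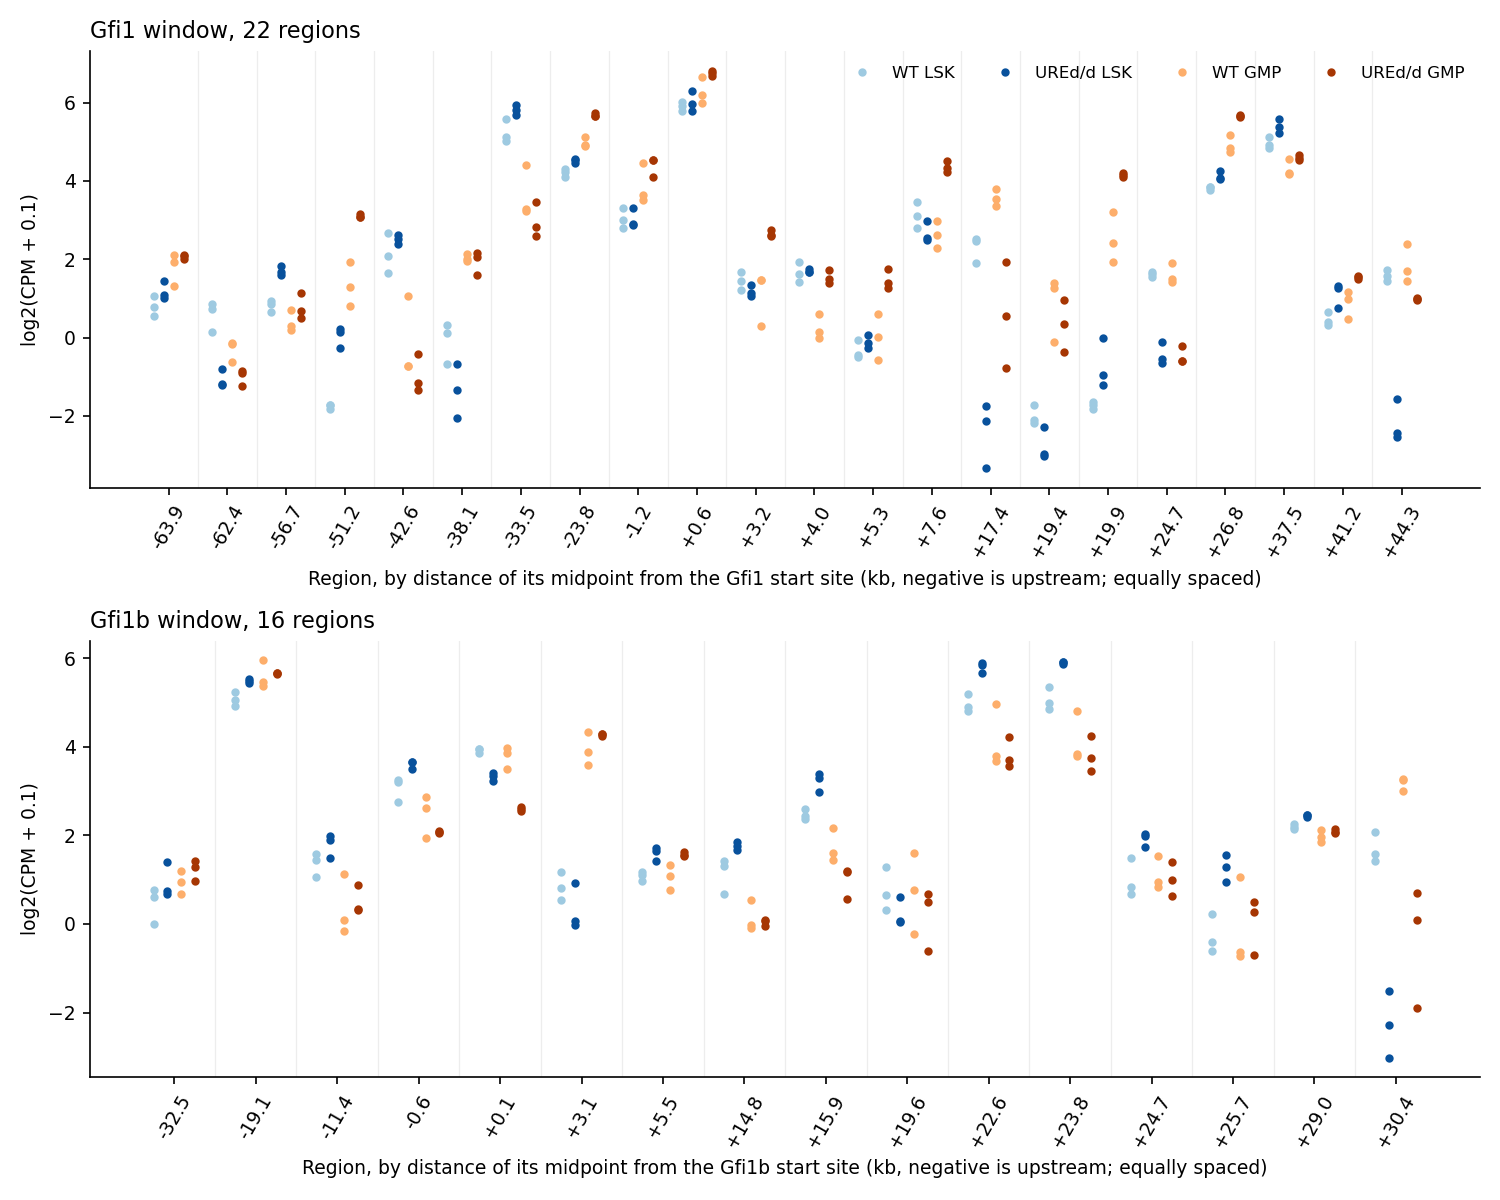
Accessibility of all 38 regions in each of the 12 libraries, as log2(CPM + 0.1) against the region's distance from the start site of Gfi1 (top) or Gfi1b (bottom); each point is 1 library. Regions are equally spaced. The promoter region of Gfi1 (+0.6 kb) is the strongest of its window in all 4 groups and highest in UREd/d-GMPs, while the pair at +22.6 and +23.8 kb of Gfi1b is highest in UREd/d-LSKs.

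The promoter regions of the paralogs are described first. The Gfi1 promoter region (+0.6 kb, chr5:107723921-107726510, spanning the first exons and introns of Gfi1 and the antisense transcript A430072P03Rik, so that signal of the 2 cannot be separated) had 64.8, 60.6 and 55.1 CPM in WT-LSKs and 78.1, 62.3 and 54.7 in UREd/d-LSKs. In WT-GMPs it had 101, 73.0 and 63.1 CPM, and in UREd/d-GMPs 108, 113 and 103. The values of the LSK groups overlapped, and all 3 UREd/d-GMP libraries lay above every other library. The region passed the fold threshold in none of the comparisons. The largest difference was that of UREd/d-GMPs against UREd/d-LSKs, a log2 change of 0.73 ± 0.14 (SE, adjusted p = 0.00028 in edgeR's quasi-likelihood test), and the difference between the genotypes in GMPs was 0.46 ± 0.14 (adjusted p = 0.012), which with loess offsets was 0.21 (adjusted p = 0.15).

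The Gfi1b promoter region (+0.1 kb, chr2:28621654-28622171, over the 5′ untranslated exon) had 15.3, 14.5 and 15.3 CPM in WT-LSKs and 10.5, 9.27 and 9.996 in UREd/d-LSKs. It had 14.4, 11.3 and 15.6 CPM in WT-GMPs and 6.11, 5.79 and 5.96 in UREd/d-GMPs. All UREd/d libraries lay below all WT libraries of the same cell type. In GMPs the region fell with a log2 change of -1.21 ± 0.14 (adjusted p = 3.2e-06), which with GC offsets was -0.99 and no longer past the fold threshold. In LSKs the log2 change was -0.59 ± 0.14 (adjusted p = 0.0017), which did not pass the fold threshold and was -0.31 with GC offsets (adjusted p = 0.067). The genotype effect in GMPs minus that in LSKs was -0.61 ± 0.20 on the log2 scale (adjusted p = 0.044), also under the fold threshold. Its adjusted p was above 0.05 in most fits that left out a library, and was 0.16 without WT-GMP replicate 3 (-0.43). A second region at the Gfi1b start, 0.6 kb upstream, had 8.37 ± 1.46 CPM in WT-LSKs (SD, n = 3), 12.1 ± 0.715 in UREd/d-LSKs, 5.65 ± 1.75 in WT-GMPs and 4.13 ± 0.0637 in UREd/d-GMPs. It was lower in UREd/d-GMPs than in UREd/d-LSKs, with a log2 change of -1.55.

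The ratio of the Gfi1 promoter region to the +0.1 kb region of Gfi1b was compared within libraries, where scaling cancels. Since the Gfi1 region is 2590 bp and the Gfi1b region 518 bp wide, only changes of this ratio can be read. The log2 ratio was 2.08, 2.06 and 1.85 in WT-LSKs, 2.89, 2.75 and 2.45 in UREd/d-LSKs, 2.80, 2.69 and 2.02 in WT-GMPs and 4.15, 4.28 and 4.11 in UREd/d-GMPs. It was higher in each UREd/d library than in each WT library of the same cell type. The mean difference was 0.70 in LSKs (exact permutation p = 0.1, two-sided, adjusted over 4 comparisons 0.133) and 1.68 in GMPs (exact permutation p = 0.1, adjusted 0.133). From LSKs to GMPs it was 0.51 in WT (exact permutation p = 0.3, or 0.25 paired by replicate number, the smallest that 3 pairs allow) and 1.49 in UREd/d cells (exact permutation p = 0.1). With 3 libraries against 3 the smallest p this test allows is 0.1, so that none could pass 0.05. The LSK difference depended on which Gfi1b regions were counted. With the -0.6 kb region added to that at +0.1 kb, a choice made after seeing the data, it was 0.18 in LSKs (exact permutation p = 0.5) and 1.40 in GMPs (exact permutation p = 0.1), and with all regions within 2.5 kb of the start sites 0.10 and 1.25.

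**Figure D2:**
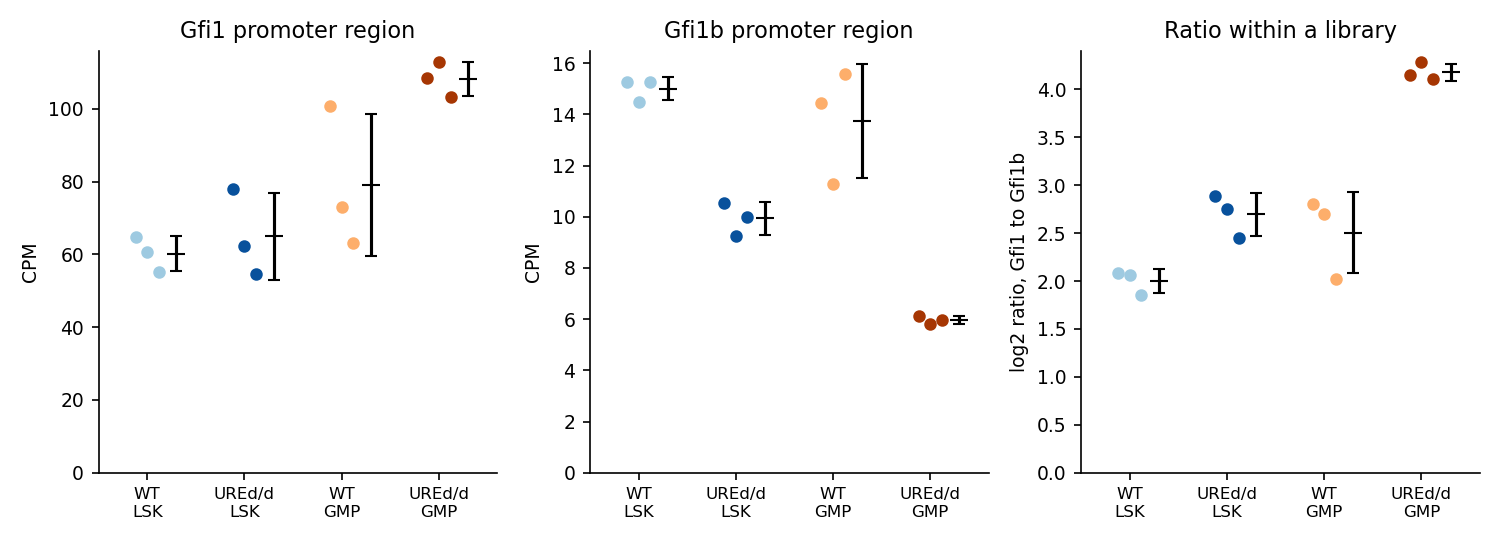
CPM of the promoter regions of Gfi1 and Gfi1b and the log2 ratio of the 2 within each library. Points are single libraries, the bar beside them the mean with its SD (n = 3). The Gfi1b promoter had 5.79 to 6.11 CPM in UREd/d-GMPs and 11.3 to 15.6 in WT-GMPs, and the ratio was highest in the 3 UREd/d-GMP libraries.

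Loss of the URE was accompanied by called differences in both directions at Gfi1. In LSKs 2 of 22 regions were higher and 5 lower in UREd/d cells, where 13.6% of all regions were called higher and 23.9% lower. In GMPs 6 were higher and 3 lower, against 15.6% and 24.1% of all regions. The median log2 change over the 22 regions was 0.19 in LSKs and 0.42 in GMPs, beside 0.14 and 0.06 over all regions tested. At Gfi1b 1 of 16 regions was higher and 1 lower in LSKs, and 0 were higher and 2 lower in GMPs, with medians of 0.51 and -0.14. The GMP median was 0.13 without WT-GMP replicate 3. Beside that 0 of edgeR's test, 1 region was higher at an unadjusted p under 0.05, and DESeq2 also called 0. With offsets for GC content the LSK split became 7 higher and 4 lower at Gfi1 and 5 higher and 1 lower at Gfi1b, and with loess offsets 4 and 4 and 2 and 1. The direction of the LSK split at Gfi1 thus depended on the scaling. In GMPs the GC offsets gave 10 higher and 2 lower at Gfi1, and loess offsets 6 and 2. More regions of Gfi1 were called higher than lower in GMPs with each scaling. GC offsets moved the median over all regions by 0.141 in LSKs and 0.144 in GMPs.

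**Figure D3:**
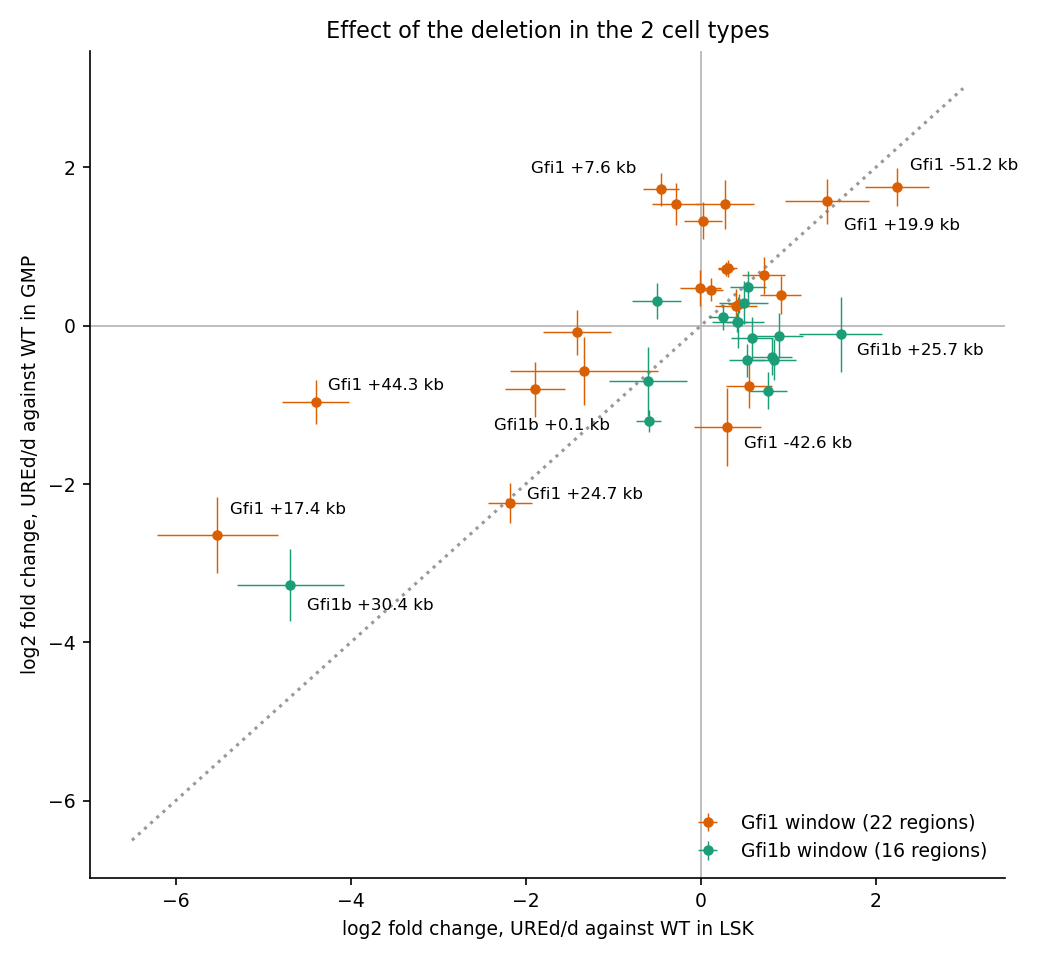
log2 fold change of UREd/d against WT in LSKs (horizontal) and GMPs (vertical) for the 38 regions, with bars of 1 SE; the dotted line marks equal effects. Gfi1 +7.6 kb (-0.46 in LSKs) and 3 further intragenic regions lie under the fold threshold in LSKs and between 1.33 and 1.72 in GMPs, while Gfi1 +17.4 kb and Gfi1b +30.4 kb lie far below 0 on both axes.

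Inside the Gfi1 gene, 4 regions were higher in UREd/d-GMPs and were not called in LSKs. The strongest, +7.6 kb (chr5:107717921-107718423, intronic, with the PU.1 octamer printed above), had 6.07, 7.76 and 4.77 CPM in WT-GMPs and 22.8, 18.7 and 19.9 in UREd/d-GMPs. In LSKs it had 8.55, 10.8 and 6.88 CPM in WT and 7.73, 5.72 and 5.55 in UREd/d cells. The GMP groups were far apart and the LSK groups overlapped. The log2 change was 1.72 ± 0.21 in GMPs (adjusted p = 3.9e-06) and -0.46 ± 0.21 in LSKs (adjusted p = 0.067), and the difference between these effects was 2.18 ± 0.29 (adjusted p = 0.00017). Without any one library that difference stayed between 2.06 and 2.45. The LSK change lay between -0.67 and -0.34 without 1 library and between -0.62 and -0.10 in the other fits. Its adjusted p was under 0.05 in 9 of these fits (lowest 0.019).

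The other 3 had less signal. The +4.0 kb region lies in a coding exon (chr5:107721621-107721897) and had 3.08 ± 0.572 CPM in WT-LSKs, 3.15 ± 0.128 in UREd/d-LSKs, 1.11 ± 0.279 in WT-GMPs and 2.82 ± 0.343 in UREd/d-GMPs (SD, n = 3), so that UREd/d-GMPs did not exceed the LSK groups there. It fell from LSKs to GMPs in WT, by 1.46 on the log2 scale (adjusted p = 6.9e-05), while in UREd/d cells the same step was -0.16 (adjusted p = 0.53). The difference between the steps, which equals the difference between the genotype effects (the interaction), was 1.30 ± 0.32 (adjusted p = 0.01). The intronic regions at +3.2 kb and +5.3 kb were singled out after their values were seen. They had 6.19 ± 0.373 and 2.71 ± 0.497 CPM in UREd/d-GMPs against 2.16 ± 0.89 and 0.967 ± 0.427 in WT-GMPs, log2 changes of 1.54 (adjusted p = 0.00012) and 1.53 (adjusted p = 0.00042). The interaction was called at +3.2 kb (1.82, adjusted p = 0.0038) and not at +5.3 kb (1.26, adjusted p = 0.068).

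Downstream of Gfi1, in the interval towards the transcript 4930428O21Rik, neighbouring regions differed in opposite directions. The +17.4 kb region (chr5:107708064-107708713, intergenic) had 5.67, 3.63 and 5.47 CPM in WT-LSKs and 0, 0.195 and 0.128 in UREd/d-LSKs. In WT-GMPs it had 13.9, 11.6 and 10.1 CPM, and in UREd/d-GMPs 1.36, 3.71 and 0.485. It was at or near 0 in all UREd/d-LSK libraries, and the UREd/d-GMP libraries differed among themselves while lying below all WT-GMP libraries. It fell with a log2 change of -5.53 ± 0.69 in LSKs (adjusted p = 5.2e-06), a fitted value that rests on few counts, and of -2.64 ± 0.48 in GMPs (adjusted p = 0.00019). The difference between these effects, 2.88 ± 0.89 (adjusted p = 0.037), was called in 7 of the 12 fits that left out a library. It was not called without WT-LSK replicate 1 (2.81) or 3 (2.84), UREd/d-LSK replicate 1 (2.30) or 3 (3.09) or UREd/d-GMP replicate 2 (1.86), with adjusted p between 0.058 and 0.11. The +24.7 kb region (chr5:107700945-107701289) was lower in UREd/d cells of both types, with 2.96 ± 0.141 against 0.651 ± 0.16 CPM in LSKs and 2.98 ± 0.575 against 0.627 ± 0.118 in GMPs, log2 changes of -2.18 ± 0.26 and -2.24 ± 0.25.

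Between them, the +19.9 kb region (chr5:107705664-107706232, intergenic, with the GFI1 and E-box matches printed above) had 0.184, 0.204 and 0.221 CPM in WT-LSKs and 0.333, 0.419 and 0.897 in UREd/d-LSKs. In WT-GMPs it had 9.08, 5.25 and 3.73 CPM, and in UREd/d-GMPs 17.6, 18.4 and 17.03. It opened with the LSK to GMP step in both genotypes, with log2 changes of 4.84 ± 0.41 in WT and 4.97 ± 0.35 in UREd/d cells. It was higher in UREd/d-GMPs than in WT-GMPs (1.57 ± 0.29, adjusted p = 0.00019) and in UREd/d-LSKs than in WT-LSKs (1.44 ± 0.48, adjusted p = 0.018). The LSK difference was 1.31 without WT-LSK replicate 1 (adjusted p = 0.059) and 0.86 without UREd/d-LSK replicate 3 (adjusted p = 0.16), the library that also had 204 CPM over the GMP markers against 137 and 131 in the other UREd/d-LSKs. The part of these markers in this difference was not tested.

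A region far upstream, in an intron of the neighbouring gene Evi5, which encodes a regulator of Rab GTPases, was also higher in UREd/d cells and in GMPs. The -51.2 kb region (chr5:107776839-107777099) had 0.196 ± 0.011 CPM in WT-LSKs, 0.933 ± 0.183 in UREd/d-LSKs, 2.58 ± 1.06 in WT-GMPs and 8.51 ± 0.267 in UREd/d-GMPs (SD, n = 3). The genotypes overlapped in neither cell type, with log2 changes of 2.24 ± 0.36 in LSKs (adjusted p = 6.5e-05) and 1.75 ± 0.24 in GMPs (adjusted p = 1.7e-05). It rose from LSKs to GMPs in WT by 3.67. At the far downstream end of the window, the +44.3 kb region (chr5:107681359-107681654, intron of Gm26692) had 2.86, 2.61 and 3.24 CPM in WT-LSKs and 0.0714, 0.0837 and 0.235 in UREd/d-LSKs. In GMPs it had 2.64, 5.14 and 3.13 CPM in WT and 1.92, 1.84 and 1.89 in UREd/d cells. The log2 change was -4.40 ± 0.38 in LSKs and -0.96 ± 0.28 in GMPs (-1.07 and called without WT-GMP replicate 3), and the difference between them was 3.44 ± 0.48 (adjusted p = 0.00025).

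The regions of the Gfi1 window called lower in GMPs of both genotypes were 2 in number and lay upstream in Evi5. The -33.5 kb region (chr5:107758992-107759680, with the RUNX, E-box and GATA matches) had 32.3, 34.7 and 47.8 CPM in WT-LSKs, 61.4, 55.7 and 51.3 in UREd/d-LSKs, 9.62, 9.34 and 21.1 in WT-GMPs and 6.996, 5.92 and 10.9 in UREd/d-GMPs. It fell from LSKs to GMPs by 1.51 on the log2 scale in WT and by 2.83 in UREd/d cells, an interaction of -1.31 ± 0.38 (adjusted p = 0.026). Without WT-GMP replicate 3 the interaction was -0.73 (adjusted p = 0.096), and the fall in WT was 2.13. The interaction was also not called without WT-LSK replicate 1 (-1.15) or 2 (-1.20), UREd/d-LSK replicate 1 (-1.24) or UREd/d-GMP replicate 1 (-1.23) or 2 (-1.14), with adjusted p between 0.059 and 0.091, nor by DESeq2 (-1.28, adjusted p = 0.059). The -42.6 kb region (chr5:107768232-107768643) had 4.48 ± 1.64, 5.60 ± 0.466, 0.996 ± 0.854 and 0.431 ± 0.195 CPM in the same order of groups, and fell in the UREd/d step by 3.72. It was called lower in UREd/d-GMPs than in WT-GMPs (log2 change -1.28), a call that was lost without WT-GMP replicate 3 (-0.25, adjusted p = 0.63). A weaker region in a coding exon of Evi5 at -62.4 kb (chr5:107788142-107788345), the other window with the PU.1 octamer, was singled out after its values were seen. It had 1.42 ± 0.374 CPM in WT-LSKs, 0.383 ± 0.0793 in UREd/d-LSKs, 0.716 ± 0.147 in WT-GMPs and 0.403 ± 0.0701 in UREd/d-GMPs, and was called lower in UREd/d-LSKs (log2 change -1.89 ± 0.34, adjusted p = 0.00018).

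Over the whole Gfi1 window the normal LSK to GMP step called 7 regions higher and 3 lower in WT, where 21.0% of all regions were called higher and 16.8% lower. In UREd/d cells it called 12 higher and 2 lower, against 27.6% and 21.6%. Without WT-GMP replicate 3 the WT count was 6 higher and 4 lower, with -63.9 kb no longer called higher (0.93) and -62.4 kb called lower (-1.23). The regions higher in GMPs of both genotypes numbered 6, among them +26.8 kb (chr5:107698445-107699478, over an exon of 4930428O21Rik) with 14.1 ± 0.397 CPM in WT-LSKs, 17.4 ± 1.44 in UREd/d-LSKs, 30.4 ± 4.84 in WT-GMPs and 50.2 ± 0.966 in UREd/d-GMPs. The median log2 change over the 22 regions was 0.42 in WT and 1.27 in UREd/d cells, beside -0.01 and 0.03 over all regions. The interaction called 5 regions higher and 1 lower at Gfi1, against 8.96% and 5.03% of all regions. The summed signal of the window was 208 ± 7.14 CPM in WT-LSKs, 240 ± 23.7 in UREd/d-LSKs, 241 ± 36.5 in WT-GMPs and 340 ± 10.98 in UREd/d-GMPs (SD, n = 3).

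At Gfi1b more regions were called lower than higher over this step in UREd/d cells. In WT 2 of 16 regions were called higher and 1 lower in GMPs, and in UREd/d cells 2 higher and 7 lower, beside the shares of all regions given above. The median log2 change was -0.05 in WT and -0.83 in UREd/d cells. Without WT-GMP replicate 3 the WT count was 2 higher and 5 lower and the WT median -0.48. The summed signal of the window was 149 ± 11.8 CPM in WT-LSKs, 217 ± 8.45 in UREd/d-LSKs, 149 ± 22.9 in WT-GMPs and 127 ± 8.66 in UREd/d-GMPs.

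**Figure D4:**
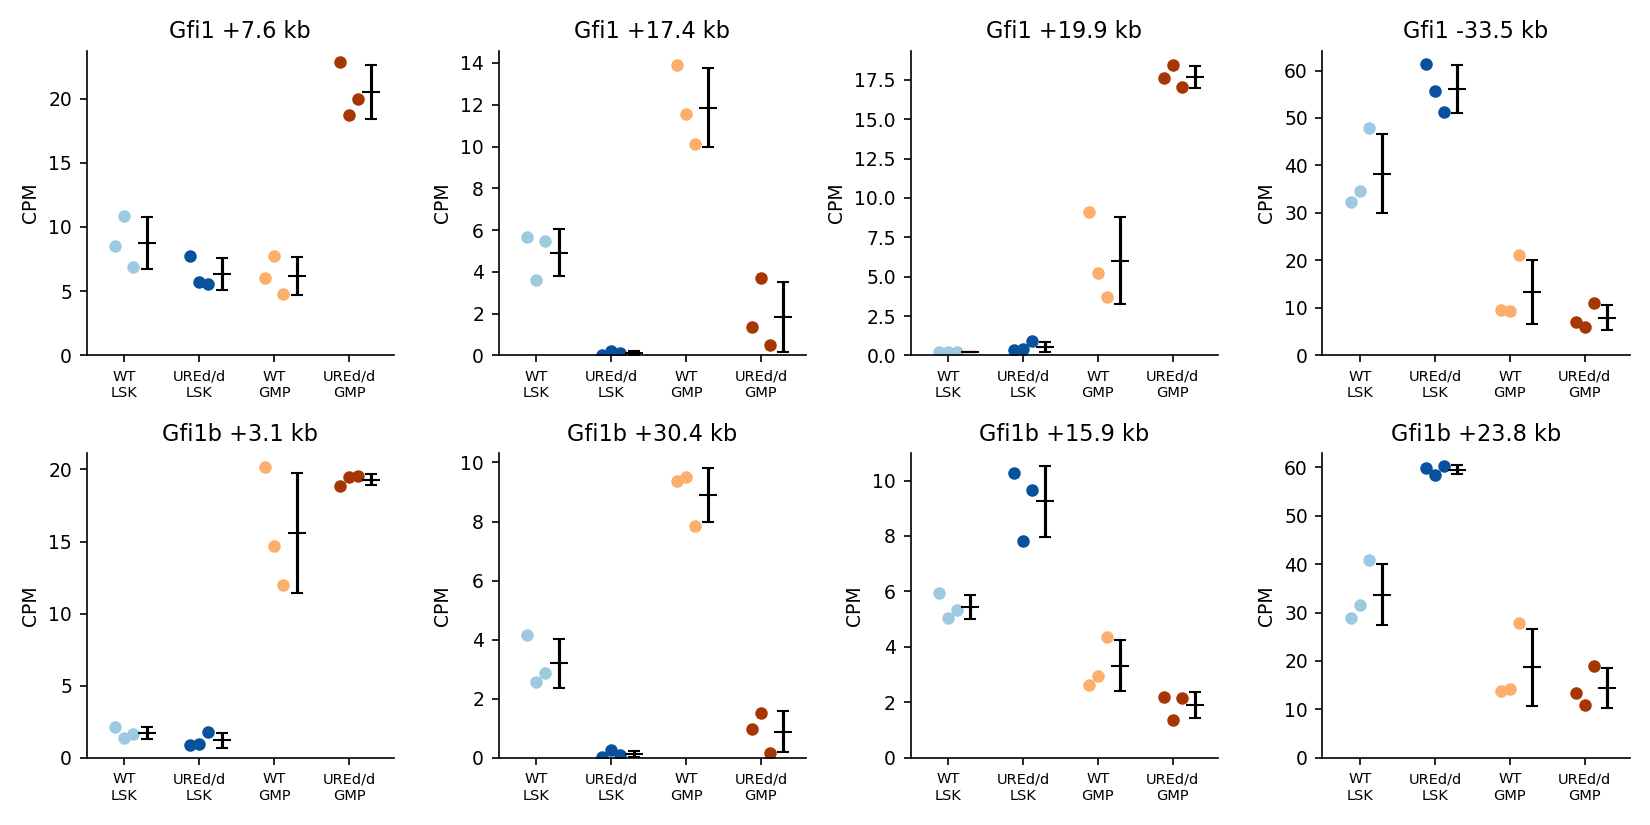
CPM of 4 regions of the Gfi1 window (top) and 4 of the Gfi1b window (bottom) in each library; points are single libraries and the bar beside them the mean with its SD (n = 3). Gfi1 +7.6 kb is high in the UREd/d-GMPs alone of the 4 groups, Gfi1 +17.4 kb and Gfi1b +30.4 kb are low in both UREd/d groups, and WT-GMP replicate 3 lies above its group at Gfi1 -33.5 kb and Gfi1b +23.8 kb.

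A block of 7 regions downstream of Gfi1b, between +14.8 and +25.7 kb, was drawn after the values were seen. It leaves out the +30.4 kb region, described below, which was called higher in GMPs. The block held 51.5% of the signal of the window in WT-LSKs and 62.3% in UREd/d-LSKs, against 31% in WT-GMPs and 27.9% in UREd/d-GMPs. Its strongest members, +22.6 kb (chr2:28598773-28600013, singled out after its values were seen) and +23.8 kb (chr2:28597728-28598605), lie closer to the start site of Gtf3c5, which encodes a subunit of the transcription factor TFIIIC, than to that of Gfi1b. The +23.8 kb region, with its 2 GATA matches, had 28.8, 31.5 and 40.9 CPM in WT-LSKs and 59.8, 58.5 and 60.3 in UREd/d-LSKs. It had 13.8, 14.2 and 27.9 CPM in WT-GMPs and 13.3, 10.8 and 18.9 in UREd/d-GMPs. The LSK groups did not overlap and the GMP groups did. The log2 change of UREd/d against WT in LSKs was 0.82 ± 0.23 (adjusted p = 0.0065), under the fold threshold, and +22.6 kb gave 0.84 ± 0.25 (adjusted p = 0.011), with 31.2 ± 4.38 CPM in WT-LSKs and 55.8 ± 4.39 in UREd/d-LSKs. Without WT-LSK replicate 1 or 2 neither kept an adjusted p under 0.05, with 0.65 as the lowest log2 change at +23.8 kb and 0.70 at +22.6 kb.

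From LSKs to GMPs the +23.8 kb region fell by 2.06 on the log2 scale in UREd/d cells (adjusted p = 1.4e-06), while in WT the change was -0.85 (adjusted p = 0.0055). Without WT-GMP replicate 3 the WT step was -1.37 at +23.8 kb (adjusted p = 2e-05), -1.36 at +22.6 kb (adjusted p = 7.1e-06) and -1.06 at +15.9 kb (adjusted p = 0.0012), and all 3 regions were then called lower in WT too. The interaction was -1.21 ± 0.33 (adjusted p = 0.02) at +23.8 kb and -1.26 ± 0.36 (adjusted p = 0.026) at +22.6 kb. Without WT-GMP replicate 3 these values were -0.71 (adjusted p = 0.07) and -0.63 (adjusted p = 0.071). Neither was called without WT-LSK replicate 1 (-1.05 and -1.18) or 2 (-1.11 and -1.14) or UREd/d-GMP replicate 1 (-1.15 and -1.19), nor was +22.6 kb without UREd/d-LSK replicate 1 (-1.22) or UREd/d-GMP replicate 2 (-1.14), with adjusted p between 0.052 and 0.091. The +15.9 kb region (chr2:28605847-28606298) had 5.93, 5.06 and 5.33 CPM in WT-LSKs, 10.3, 7.82 and 9.65 in UREd/d-LSKs, 2.64, 2.96 and 4.36 in WT-GMPs and 2.17, 1.37 and 2.16 in UREd/d-GMPs. The genotypes did not overlap in either cell type and were ordered oppositely. Its interaction of -1.59 ± 0.32 (adjusted p = 0.0032) was -1.27 in the weakest of the fits without 1 library.

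Several marker lists of other cell types were also higher in UREd/d-LSKs than in WT-LSKs. Sums over megakaryocyte markers were 167 to 210 CPM in WT-LSKs, 225 to 249 in UREd/d-LSKs, 110 to 161 in WT-GMPs and 102 to 120 in UREd/d-GMPs. Those over mast cell and basophil markers (3 of 6 genes with a region) were 125 to 143, 166 to 184, 102 to 130 and 130 to 158 CPM. T cell markers (4 of 6) gave 99.95 to 104, 124 to 136, 75.3 to 82.2 and 98.9 to 110 CPM. B cell markers (6 of 6) gave 94.03 to 101.3, 103.5 to 110.4, 136.9 to 143.9 and 141 to 153.3 CPM. Monocyte and macrophage markers (6 of 6) went the other way and were lower in UREd/d cells of both types. Their sums were 139.3 to 142.7, 94.44 to 98.28, 195.4 to 220.9 and 127.1 to 151.6 CPM. The part of these markers in the Gfi1b differences was not tested. The weaker +25.7 kb region (chr2:28596101-28596380, with GATA and RUNX matches) was the only Gfi1b region called higher in UREd/d-LSKs, at 2.34 ± 0.499 against 0.756 ± 0.273 CPM (log2 change 1.60 ± 0.47, adjusted p = 0.0088). Without WT-LSK replicate 1 this was 1.34 (adjusted p = 0.059). The +14.8 kb region (chr2:28607061-28607276) was lower in GMPs of both genotypes, with 2.15 ± 0.571 and 3.29 ± 0.198 CPM in WT- and UREd/d-LSKs and 1.03 ± 0.29 and 0.928 ± 0.0536 in WT- and UREd/d-GMPs.

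The regions of Gfi1b that were higher in GMPs were 2 in number and responded to the deletion in different ways. The +3.1 kb region in an intron of Gfi1b (chr2:28618531-28619251, with C/EBP and GFI1 matches) had 2.15, 1.35 and 1.65 CPM in WT-LSKs and 0.880, 0.949 and 1.79 in UREd/d-LSKs. It had 20.2, 14.7 and 11.99 CPM in WT-GMPs and 18.9, 19.4 and 19.6 in UREd/d-GMPs. The genotypes overlapped in both cell types, and the step to GMPs raised it by 3.16 ± 0.26 on the log2 scale in WT and 3.98 ± 0.27 in UREd/d cells. The +30.4 kb region at the far end of the window (chr2:28591357-28591904, intergenic, without a match to the 7 motifs in its central 300 bp, the only part searched) had 4.15, 2.57 and 2.88 CPM in WT-LSKs and 0.0238, 0.251 and 0.107 in UREd/d-LSKs. It had 9.37, 9.51 and 7.86 CPM in WT-GMPs and 0.969, 1.53 and 0.170 in UREd/d-GMPs. It fell with log2 changes of -4.69 ± 0.61 in LSKs (adjusted p = 7.5e-06) and -3.28 ± 0.45 in GMPs (adjusted p = 1.6e-05).

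In this the +30.4 kb region of Gfi1b resembled the +17.4 kb region of Gfi1. At both regions WT-GMPs had more signal than WT-LSKs, all UREd/d libraries lay below all WT libraries of the same cell type, and UREd/d-GMP replicate 2 kept the most signal and replicate 3 the least. The Spi1 promoter region, looked at after these values were seen, had 24.2, 29.1 and 21.2 CPM in UREd/d-GMP replicates 1, 2 and 3 against 33.8, 37.1 and 36.1 in WT-GMPs. In UREd/d-LSKs it had 2.83, 8.46 and 5.64 CPM against 36.6, 34.1 and 34.8 in WT-LSKs. Over the comparison that asks whether the genotype effect differed between cell types, Gfi1b had 0 regions called higher and 3 lower (1 higher at an unadjusted p under 0.05 in edgeR, 0 called by DESeq2), and Gfi1 5 and 1. Without WT-GMP replicate 3 these counts were 0 and 1 at Gfi1b and 5 and 0 at Gfi1.

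Other genes in the windows had promoter regions as well. That of Tsc1 (-19.1 kb from Gfi1b, chr2:28640622-28641584), which encodes an inhibitor of mTOR signalling, had the most counts of its window with 33.5 ± 3.73, 44.7 ± 1.44, 48.9 ± 11.1 and 50.2 ± 0.308 CPM in WT-LSKs, UREd/d-LSKs, WT-GMPs and UREd/d-GMPs, and was called in no comparison. The region at the starts of 5830411K02Rik and Gm26692 (+37.5 kb from Gfi1, chr5:107687866-107688756), with 31.2 ± 3.25, 42.3 ± 5.43, 19.9 ± 3.06 and 24.1 ± 1.13 CPM, was likewise never called. The region 1.2 kb upstream of Gfi1 (chr5:107726616-107727371, in an exon of A430072P03Rik) had 8.18 ± 1.51, 8.15 ± 1.41, 15.2 ± 5.92 and 21.0 ± 3.36 CPM. It was called higher in UREd/d-GMPs than in UREd/d-LSKs, and was not called between genotypes in either cell type. Over the 5 comparisons, 18 of 22 regions at Gfi1 and 10 of 16 at Gfi1b were called at least once, 81.8% and 62.5%, against 67.4% of all regions. The 12 regions with no sentence of their own had between 0.0238 and 53.6 CPM in single libraries, and their log2 changes between genotypes lay between -1.41 and 0.92 in LSKs (1 called, at -38.1 kb of Gfi1) and between -0.70 and 0.71 in GMPs (0 called).

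Genes whose summed regions had the pattern most like Gfi1 were Serpinb1a (Pearson r = 0.993 over the 12 libraries, log2 CPM), Tmcc1, Mia3, Ksr1 and Tbca, out of 17077 genes with a region assigned by nearest start site. For Gfi1b they were Inf2 (r = 0.901), Zfp974, Ppm1j, Pigv and Ifngr2. Gfi1 and Gfi1b had r = -0.0556 with each other. The Gfi1b sum held only 7 regions. Those from +22.6 to +30.4 kb lie nearer the start of Gtf3c5 and were assigned to it, and those from -32.5 to -11.4 kb to Tsc1. Its means were 36.4 CPM in WT-LSKs, 39.8 in UREd/d-LSKs, 43.1 in WT-GMPs and 36.2 in UREd/d-GMPs. The r values of Gfi1b therefore leave out the +22.6 and +23.8 kb regions. Those of Gfi1 leave out the regions from -63.9 to -38.1 kb, which were assigned to Evi5. The points share library depth and group, and the values are descriptions only.

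Of 10 genes that encode partners of the SNAG repressors (Kdm1a, Rcor1, Rcor2, Rcor3, Hdac1, Hdac2, Ehmt2, Zbtb17, Ajuba and Runx1t1), 0 had a promoter region called between genotypes in either cell type by edgeR or DESeq2. Over all regions edgeR called 13.6% higher and 23.9% lower in LSKs, and 15.6% and 24.1% in GMPs. At an unadjusted p under 0.05, 8 were higher and 1 lower in UREd/d-LSKs, and 4 higher and 1 lower in UREd/d-GMPs. Of all regions, 31.4% were higher and 30.2% lower at that level in LSKs, and 32% and 32.6% in GMPs. These shares are over all regions, and none is given for promoter regions alone. Ajuba, a LIM protein, was higher in GMPs of both genotypes (log2 change 1.16 in WT and 1.21 in UREd/d cells). Kdm1a, which encodes LSD1, had 34.0 ± 3.8, 45.2 ± 2.11, 44.6 ± 12.4 and 44.6 ± 0.544 CPM in WT-LSKs, UREd/d-LSKs, WT-GMPs and UREd/d-GMPs. Of 21 genes known as targets or antagonists of the repressors, 4 were lower in UREd/d-LSKs (Spi1, Csf1r, Gata1 and Il7r) and 4 in UREd/d-GMPs (Csf1r, Hoxa9, Gata1 and Il7r, of which DESeq2 called 3), beside 23.9% and 24.1% of all regions, and 0 were higher in either (6 in LSKs and 9 in GMPs at an unadjusted p under 0.05, 0 called by DESeq2). The receptor gene Csf1r fell by 4.42 in LSKs and 1.82 in GMPs on the log2 scale, and Gata1, the erythroid regulator, fell by 2.54 in each. From LSKs to GMPs, 4 of the 21 were called higher and 0 lower in WT, against 21.0% and 16.8% of all regions. Beside that 0, 6 were lower at an unadjusted p under 0.05 in edgeR's test, as were 31% of all regions, and DESeq2 also called 0. In UREd/d cells 5 were called higher and 3 lower, against 27.6% and 21.6% of all regions. Elane, which encodes neutrophil elastase, had 13.9 ± 2.63 CPM in WT-GMPs and 23.9 ± 0.971 in UREd/d-GMPs, and Cebpe, a regulator of granule genes, 29.9 ± 7.69 and 43.4 ± 3.25, neither past the fold threshold between genotypes.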

How the data were processed

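ATAC-seq of sorted LSKs and GMPs of WT and UREd/d mice was analysed from a single deposited table of raw counts, 12 libraries by 121336 regions. Per the study's methods and the submitters' processing notes, the authors trimmed reads with cutadapt, aligned them to GRCm38 with Bowtie2, removed duplicates and non-primary chromosomes, called peaks per group with Genrich, merged them with bedtools and counted with featureCounts. Since peaks were called on groups, a region open in 1 group is measured in all. Whether fragments or read ends were counted, and shifted for the transposase, is not given in the sources used here. Region starts were read as counting from 0 (the smallest width by subtraction is 200) and printed counting from 1.

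Counts were fitted with edgeR 4.0.16 (quasi-likelihood F test, TMM scaling, 1 coefficient per group, all 12 libraries) in R 4.3.3, and p-values adjusted by Benjamini-Hochberg over all regions. filterByExpr kept all 121336 regions, so all 38 members were tested, of which 28 had a mean CPM of at least 2. The SE values come from the quasi-likelihood fit and the SD values from the libraries of a group, so both include the spread between libraries. The windows, gene lists and tests were chosen with earlier results of these data known. The text names promoter regions, the region with the most counts of each window, and the 2 called regions with the smallest p per window, comparison and direction, 21 in all, and says where it adds others. Promoter regions lay within 500 bp of a GENCODE M21 start. The sums over the LSK and erythroid marker lists are not reported here. The fit was tested on simulated data. Alternatives were DESeq2 1.42.0, RLE, library size alone, TMM on promoters, loess and GC offsets, other filters, only the groups compared, replicate blocks and leaving out each library. Promoter ratios were compared by exact permutation tests in scipy 1.17.1.

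Replicate numbers are shared across groups. Deviations from the group means correlated at 0.181, 0.191 and 0.207 between same-numbered WT-LSK and WT-GMP libraries, each over 0.1, and these were taken as paired in the paired permutation p of the promoter ratio. The main edgeR fit had no replicate block, so its values for the WT step are unpaired. In every other comparison at least 1 pair was under 0.1 (lowest -0.0616). Between the genotypes in GMPs the values were 0.0997, 0.205 and 0.349, so that this comparison missed the cut narrowly. Whether LSKs and GMPs of 1 number came from the same mouse is not given in the sources used here.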

Additional observations from a re-analysis of the deposited data

Results flagged for a closer look

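At 7 of the named regions the effect of the deletion differed between LSKs and GMPs by the test of that difference (edgeR's quasi-likelihood test of the interaction, effect in GMPs minus effect in LSKs, log2 scale). Such a call was made at 8.96% of all regions in the higher and 5.03% in the lower direction, and some of the 7 were named because of it. At Gfi1 the difference was 2.18 for +7.6 kb, 1.30 for +4.0 kb, 2.88 for +17.4 kb and 3.44 for +44.3 kb, so that the UREd/d signal relative to WT was higher in GMPs than in LSKs at each of them. It was -1.31 for Gfi1 -33.5 kb, -1.59 for Gfi1b +15.9 kb and -1.21 for Gfi1b +23.8 kb, the opposite order. These last values at Gfi1 -33.5 kb and Gfi1b +23.8 kb became -0.73 and -0.71 without WT-GMP replicate 3, which had more signal there than the other WT-GMPs. Of the 12 fits that left out a library, 6 lost the call at Gfi1 -33.5 kb, 4 at Gfi1b +23.8 kb and 5 at Gfi1 +17.4 kb. The differences at Gfi1 +7.6 kb, +4.0 kb and +44.3 kb and at Gfi1b +15.9 kb were called in each of the 12. No group of 4 or more libraries exists here, so single libraries were not tested as outliers.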

How the results depend on the processing

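Counts of called regions kept within 1.5 times their value under DESeq2, RLE, library size alone, TMM on promoters, loess offsets and no filter. GC offsets, alone or with the replicate block, gave 11 called regions at Gfi1 and 6 at Gfi1b in LSKs in place of 7 and 2, and 1 at Gfi1b in GMPs in place of 2. A mean CPM of at least 2 left 1 at Gfi1b in LSKs. The interaction at Gfi1b had 5 called regions with the replicate block and 6 with block and GC offsets in place of 3. The replicate block moved no other count by over 1.5 times. Leaving out each library in turn gave 6 to 7 regions at Gfi1 in LSKs, 8 to 10 in GMPs, 8 to 11 in the WT step, 14 to 15 in the UREd/d step and 4 to 8 in the interaction. At Gfi1b it gave 1 to 3, 2 to 3, 3 to 7, 8 to 10 and 1 to 5. The 7 came without WT-GMP replicate 3, and the interaction had 1 region without WT-LSK replicate 1 or 2, WT-GMP replicate 3 or UREd/d-GMP replicate 1, and 5 without UREd/d-LSK or UREd/d-GMP replicate 3. Without WT-LSK replicate 1, 1 Gfi1b region was called in LSKs. Promoter ratio differences ranged over 0.60 to 0.82 in LSKs, 1.43 to 1.82 in GMPs, 0.36 to 0.75 in the WT step and 1.36 to 1.58 in the UREd/d step. With all regions within 2.5 kb of the start sites they were 0.10 in LSKs, 1.25 in GMPs and 1.77 in the UREd/d step in place of 0.70, 1.68 and 1.49, and GC offsets gave 0.35 in LSKs. With both Gfi1b promoter regions summed, chosen after seeing the data, they were 0.18 in LSKs and 1.88 in the UREd/d step. The cause of these shifts was not tested. Values under 3 counts (0.052 to 0.122 CPM) carry little information on a ratio.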
